A study of Mus musculus with 16 samples.

Results

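The PDZ-LIM genes of mouse heart, 7 of the 36347 genes with values in both experiments of the series, were taken by their symbols: Pdlim1, Pdlim2, Pdlim3, Pdlim4, Pdlim5, Pdlim7 and Ldb3. All 7 passed the filters on low values in both experiments. Heart RNA was sequenced from C57BL/6 mice without the actin-binding protein CAP2, in a study whose title names CAP2-dependent dilated cardiomyopathy and MRTF/SRF, a coactivator and transcription factor pair that responds to free actin. In experiment A all mice were females aged 86 weeks, and the groups were 3 wild-type and 3 CAP2-/- hearts. In experiment B all mice were aged 13 weeks and homozygous for Loxp. The group termed Cre- held 3 females and 2 males that lacked Cre, and the group termed Cre+ held 3 females and 1 male that carried it. The Myh6 promoter that drives this Cre is active in cardiomyocytes, so Cap2 remains intact in other cells of those hearts. No group carried Cre without Loxp, so an effect of Cre itself and one of losing Cap2 cannot be told apart. A further Cre+ library, replicate 5, was not analysed here. The labels do not say whether libraries of a group came from separate animals; otherwise a p-value reflects spread between samples that may be technical.

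PDZ-LIM proteins carry a PDZ domain at the start, which binds alpha-actinin, and 1 or 3 zinc-binding LIM domains at the end, which bind kinases and other partners. In striated muscle they sit at the Z-disc, the plate that anchors actin filaments at the ends of each sarcomere, and in other cells along actin stress fibres. The ALP group, with 1 LIM domain, holds Pdlim1 (CLP36), Pdlim2 (mystique), Pdlim3 (ALP, actinin-associated LIM protein) and Pdlim4 (RIL). The Enigma group, with 3 LIM domains in the long form, holds Pdlim5 (ENH, Enigma homologue), Pdlim7 (Enigma) and Ldb3 (ZASP or Cypher, mutated in some inherited cardiomyopathies). Enigma genes also make short forms that keep the PDZ domain and lack the LIM domains. In the GENCODE transcripts, a search of the coding sequence for the LIM spacing of cysteines and histidines found 1 match in the full-length transcripts of the ALP group. It found 3 in the longest transcripts of Pdlim5 (591 residues), Pdlim7 (457 residues) and Ldb3 (723 residues) and 0 in short transcripts such as Pdlim5-205 (239 residues), Pdlim7-206 (219 residues) and Ldb3-203 (327 residues).

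An exon from within the LIM region is shown for the Enigma group, because the reads over such exons set the long forms apart from the short ones. It is 121 bases long in each gene, lies on the minus strand and is coding: chr13:55499101-55499221 in Pdlim7, chr3:142247295-142247415 in Pdlim5 and chr14:34541868-34541988 in Ldb3 (mm10). Capitals mark codons for the cysteines and histidines at zinc-binding positions of the LIM pattern. The last base, also in capitals, starts a codon for aspartate that the next exon completes. The pattern allows aspartate at that position beside cysteine and histidine.
Pdlim7: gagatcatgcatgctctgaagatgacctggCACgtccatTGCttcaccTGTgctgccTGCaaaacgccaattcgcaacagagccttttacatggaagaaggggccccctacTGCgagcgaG
Pdlim5: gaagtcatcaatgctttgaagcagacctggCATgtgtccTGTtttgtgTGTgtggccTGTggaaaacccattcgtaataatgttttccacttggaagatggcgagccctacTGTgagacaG
Ldb3: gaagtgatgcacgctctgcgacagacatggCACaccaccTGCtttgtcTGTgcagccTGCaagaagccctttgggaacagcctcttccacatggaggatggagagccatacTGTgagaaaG
The exons of Ldb3 and Pdlim5 were identical at 85 of 121 bases (70.2%), those of Ldb3 and Pdlim7 at 82 (67.8%) and those of Pdlim5 and Pdlim7 at 80 (66.1%).

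Promoter windows, the 250 bases before an annotated RefSeq start (GRCm38.p6), were found for 6 of the 7 members and searched on both strands for motifs of muscle promoters. They are shown for Ldb3, the member with an exact match to the SRF-binding CArG box, and for Pdlim3, which showed the largest rise in experiment A. Ldb3 has 2 windows, for 2 annotated starts, and that at chr14:34588682-34588931 (minus strand) is shown. Capitals mark the CArG box, 35 to 26 bases upstream of this start and 109 to 100 bases upstream of the other.
Ldb3: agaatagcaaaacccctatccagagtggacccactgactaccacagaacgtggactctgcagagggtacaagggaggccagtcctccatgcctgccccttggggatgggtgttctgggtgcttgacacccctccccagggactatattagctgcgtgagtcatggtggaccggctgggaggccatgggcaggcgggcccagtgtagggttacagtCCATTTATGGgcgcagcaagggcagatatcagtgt
In the Pdlim3 window (chr8:45885237-45885486, plus strand) capitals mark CATTCC on either strand, the MCAT element bound by TEAD factors. It lies once 201 to 196 bases and once 11 to 6 bases upstream of the RefSeq start. GENCODE places the start of the gene at chr8:45885461, so the match nearer the RefSeq start lies within the gene there.
Pdlim3: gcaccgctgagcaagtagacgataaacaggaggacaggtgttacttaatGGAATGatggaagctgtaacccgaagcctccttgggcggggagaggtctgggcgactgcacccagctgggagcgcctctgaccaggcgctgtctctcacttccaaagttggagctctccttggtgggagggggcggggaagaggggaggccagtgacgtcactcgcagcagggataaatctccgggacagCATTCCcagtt
A CArG box was found in 1.47% of all 32851 windows of this length and CATTCC in 12.6%. No window of Pdlim1, Pdlim3, Pdlim4, Pdlim5 or Pdlim7 held an exact CArG box, which says only that these letters are not in these windows.

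Estimated counts summed to 10750175 to 27440478 per library of experiment A, of which 51.4 to 190.6 fell on Pdlim2, the least counted member, and 14288 to 32362 on Ldb3. Values are given as CPM, counts scaled to a fixed library total, for experiment A and as the authors' normalized counts for experiment B, whose depth is unknown. Nuclear genes summed to 3815980 to 4044523 normalized counts per library there, and mitochondrially encoded genes made up 22.97% to 69.5% of each total. Cre- replicate 4 stood apart, with a mean Spearman correlation of 0.825 to its own group against 0.905 to 0.945 for the other 8 libraries. The main test of each member and of the called binding partners in experiment B is therefore also given without it. Cap2 was at 197 to 228 CPM in wild type and 8.34 to 16.2 in CAP2-/-, and at 391 ± 288 normalized counts in Cre- and 65.0 ± 24.2 in Cre+ (SD, n = 5 and 4). The 8 cardiomyocyte markers summed to 84026 to 94042 CPM in wild type and 94075 to 105323 in CAP2-/-, but their median log2 fold change was -0.0066. Actc1, cardiac alpha-actin, was the 1 marker called (12889 ± 594 to 27730 ± 3248 CPM, edgeR adjusted p = 2.41e-05). Tnni3 and Ryr2 were lower without overlap and not called, and 1303 of all 16297 genes tested were lower without overlap. In bulk hearts, more cells of a type and more RNA per cell cannot be told apart.

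In aged CAP2-/- hearts 3 of the 7 genes rose, Pdlim3 most, then Pdlim7 and Pdlim5, and none fell. A gene is termed called at an adjusted p under 0.05 (edgeR, Benjamini-Hochberg over all 16297 genes tested), and 0.841% of all genes tested were called higher. The same 3 genes had groups that did not overlap, all higher in CAP2-/-, as had 7.60% of all genes. The median log2 fold change was 0.55 over the 7 members and 0.0057 over all genes tested. Over all genes, 137 were called higher and 83 lower, a split that was 131 and 128 without TMM factors; the same 3 members were called higher in both fits.

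**Figure D1:**
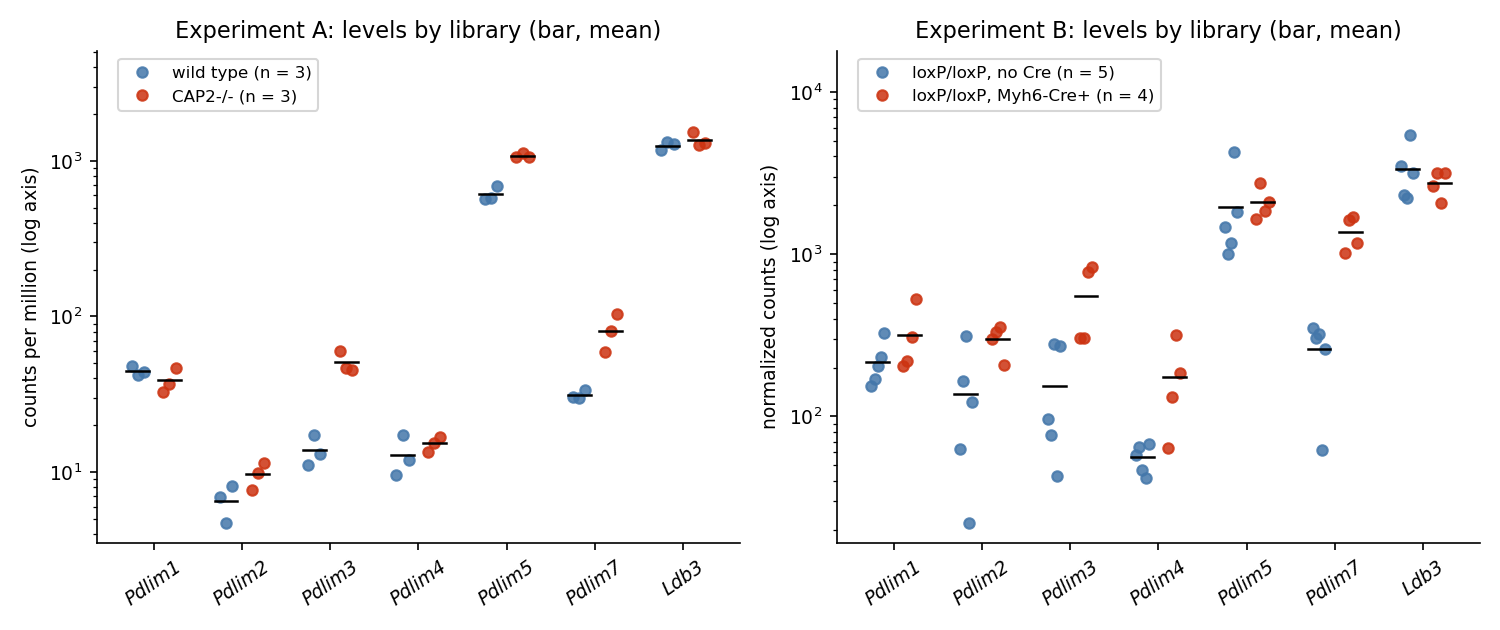
Level of each PDZ-LIM gene in every library of experiment A (left, CPM) and experiment B (right, normalized counts), on log axes; points are libraries and bars group means. The CAP2-/- libraries lie above all wild-type libraries for Pdlim3, Pdlim5 and Pdlim7, and the Cre+ libraries lie above all Cre- libraries for Pdlim3 and Pdlim7.

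Pdlim3 (ENSMUSG00000031636, chr8:45885461-45919548, plus strand), the actinin-associated LIM protein of Z-discs and intercalated discs, stood at 11.1, 17.2 and 13.1 CPM in wild-type replicates 1 to 3 and at 60.4, 46.6 and 45.3 in CAP2-/- replicates 1 to 3. Every CAP2-/- library was above every wild-type library. The rise was 3.72-fold (log2 1.89, SE 0.18, edgeR adjusted p = 1.54e-05). Pdlim1 (ENSMUSG00000055044, chr19:40221173-40271842, minus strand), which links alpha-actinin to stress fibres, was at 48.0, 42.1 and 43.9 CPM in wild type and 32.9, 36.8 and 46.6 in CAP2-/-. Its groups overlapped and it was not called (log2 -0.20, SE 0.14, edgeR adjusted p = 0.701). Pdlim2 (ENSMUSG00000022090, chr14:70164218-70177681, minus strand), known outside muscle as a nuclear ubiquitin ligase for immune transcription factors, was the lowest member, at 6.88, 4.70 and 8.08 CPM against 7.61, 9.87 and 11.5. These groups overlapped as well (log2 0.55, SE 0.24, edgeR adjusted p = 0.425). Pdlim4 (ENSMUSG00000020388, chr11:54054928-54069014, minus strand), an actin stress fibre protein, held 9.62, 17.2 and 12.0 CPM in wild type and 13.5, 15.4 and 16.9 in CAP2-/-, and was not called (log2 0.26, SE 0.21, edgeR adjusted p = 0.753).

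Of the Enigma group, Pdlim7 (ENSMUSG00000021493, chr13:55495795-55513676, minus strand), a scaffold first known for binding receptor kinases through its LIM domains, stood at 30.4, 30.1 and 33.9 CPM in wild type. In CAP2-/- it reached 59.1, 81.2 and 103 CPM, the lowest of which was above the highest wild-type library. The rise was 2.58-fold (log2 1.37, SE 0.17, edgeR adjusted p = 0.000585). Pdlim5 (ENSMUSG00000028273, chr3:142239590-142395696, minus strand), which tethers protein kinase C to the Z-disc, was at 569, 580 and 690 CPM in wild type and 1052, 1125 and 1059 in CAP2-/-. Its groups were likewise apart, by 1.76-fold (log2 0.82, SE 0.11, edgeR adjusted p = 0.000700). Ldb3 (ENSMUSG00000021798, chr14:34526603-34588682, minus strand), which keeps Z-discs intact under load, was the most abundant member and overlapped between groups. It was at 1166, 1316 and 1277 CPM in wild type and 1526, 1273 and 1299 in CAP2-/- (log2 0.12, SE 0.11, edgeR adjusted p = 0.783). In the authors' deposited table for experiment A the log2 fold changes were 1.88 for Pdlim3, 1.36 for Pdlim7, 0.81 for Pdlim5 and 0.12 for Ldb3. The microRNA gene Mir6945 lies within Pdlim7 on the same strand, and the counting could assign reads there to either; no other annotated gene overlaps an exon of a member.

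**Figure D2:**
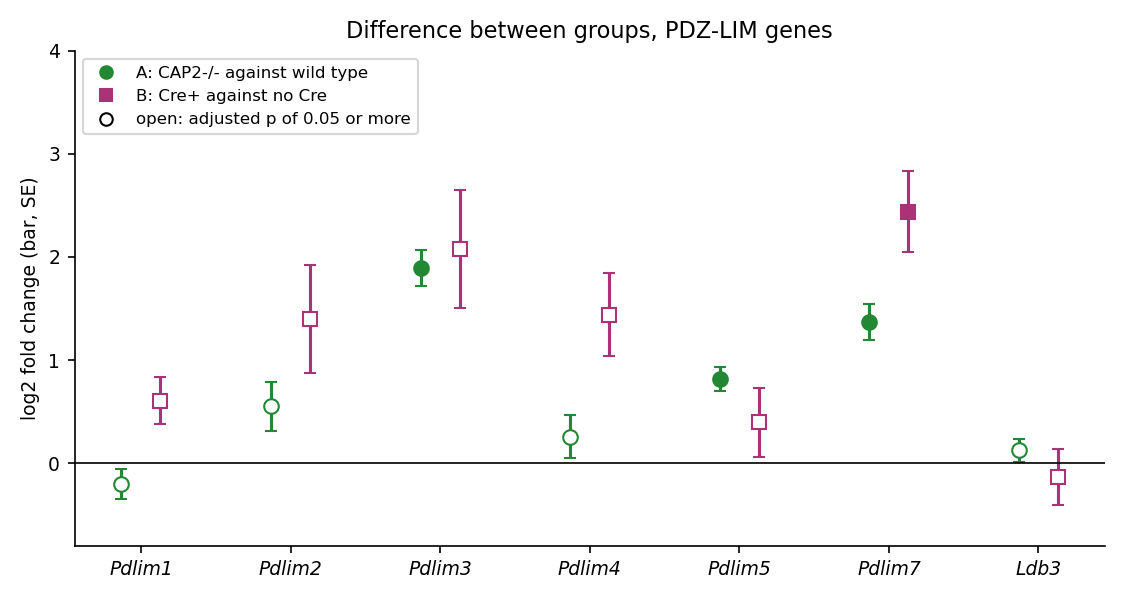
Log2 fold change of each gene, CAP2-/- against wild type in experiment A (circles, n = 3 and 3) and Cre+ against Cre- in experiment B (squares, n = 4 and 5), with bars of 1 SE; filled symbols have an adjusted p under 0.05. Pdlim3, Pdlim5 and Pdlim7 are filled in experiment A and Pdlim7 alone in experiment B.

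Per kilobase of annotated exon, Ldb3 led in wild-type hearts at 205 ± 12.8 CPM (SD, n = 3), followed by Pdlim5 at 69.0 ± 7.51 and Pdlim1 at 8.49 ± 0.576. Pdlim7 (6.49 ± 0.434) and Pdlim4 (5.06 ± 1.52) overlapped in their libraries. On this length Pdlim3 (2.68 ± 0.608) and Pdlim2 (1.46 ± 0.382) came last, each apart from the next. In CAP2-/- hearts Ldb3 (224 ± 22.9) and Pdlim5 (121 ± 4.51) kept the first and second places, Pdlim7 came next (16.7 ± 4.54) and then Pdlim3 (9.86 ± 1.62). Pdlim3 overlapped there with Pdlim1 (7.37 ± 1.34), and Pdlim1 with Pdlim4 (5.96 ± 0.657). All exons annotated in GENCODE count in this length, including exons that few heart transcripts use. The exons that the authors counted span less for some members. They span 834 LIM-encoding and 744 other bases of 5147 for Pdlim3, and 649 and 854 of 5260 for Pdlim1. For Pdlim5 they span 3765 and 2683 of 8877. The levels of these genes are thus understated here, and the places of Pdlim3 and Pdlim1 depend on the length used.

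The higher Pdlim7 reads of CAP2-/- hearts lay mostly outside the exons that encode the LIM domains. Overlapping exons were merged into exonic blocks, 12 for Pdlim7, and blocks that encode LIM residues in any transcript were summed apart from the others. The 5 LIM-encoding blocks, the last of which also holds the untranslated end, gave 7.36, 6.71 and 6.70 CPM in wild type and 6.32, 6.15 and 9.30 in CAP2-/-, with overlapping groups and a ratio of means of 1.05. The other 7 blocks went from 23.01, 23.4 and 27.2 to 52.7, 74.9 and 93.8 CPM, a ratio of 3.01. LIM-encoding blocks thus held 24.2%, 22.3% and 19.8% of the Pdlim7 reads in wild type and 10.7%, 7.58% and 9.02% in CAP2-/-, and the groups did not overlap. This split was chosen after the values were seen and is given as a description without a test. How often such parts of a gene lie apart between the groups was not counted over all genes. The reads behind it were few, at 69.7 to 204 estimated counts per library over the LIM-encoding blocks.

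**Figure D3:**
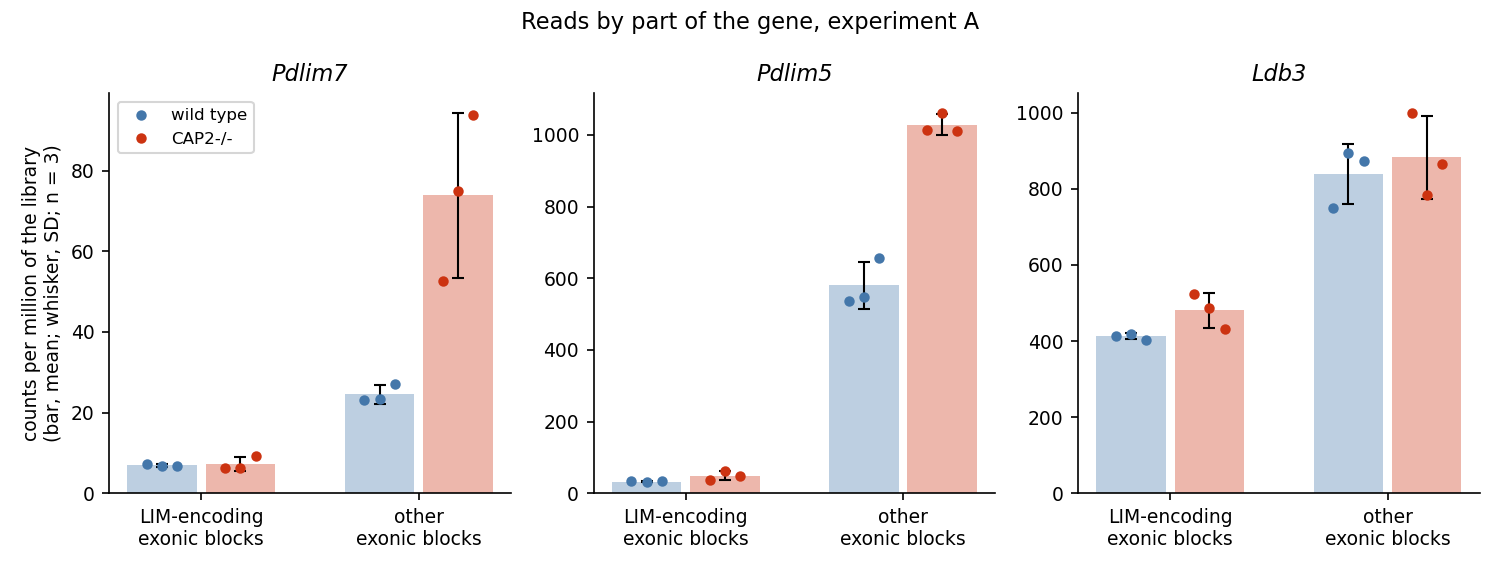
Reads over LIM-encoding and other exonic blocks of Pdlim7, Pdlim5 and Ldb3 in experiment A, in CPM; bars are means, whiskers SD (n = 3) and points libraries, and each panel has its own vertical scale. The LIM-encoding blocks of Pdlim7 average 6.92 in wild type and 7.25 in CAP2-/-, while its other blocks average 24.5 and 73.8.

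The exon whose sequence is shown above, block 4 of Pdlim7, held 4.28%, 1.64% and 3.75% of the gene's exonic reads in wild type and 0.272%, 1.35% and 0.518% in CAP2-/-. Block 7 (chr13:55506306-55508326), which lies upstream of every LIM-encoding block, held the most, at 52.6%, 49.6% and 52.0% against 61.3%, 64.1% and 64.1%. In the test of each block against its gene over 76841 blocks (edgeR diffSpliceDGE), 2 blocks were called (0.00260%), none of them among the 56 tested blocks of the 7 members. At an unadjusted p under 0.05 were 6 of the 56, of which 3 were LIM-encoding blocks of Pdlim7 and 3 were blocks of Ldb3, beside 2.59% of all blocks. The lowest of these p-values were 0.000425 for block 2 of Pdlim7 (log2 -1.42 against the gene, SE 0.38) and 0.000707 for block 4 (log2 -2.16, SE 0.61), both with an adjusted p of 1.00.

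**Figure D4:**
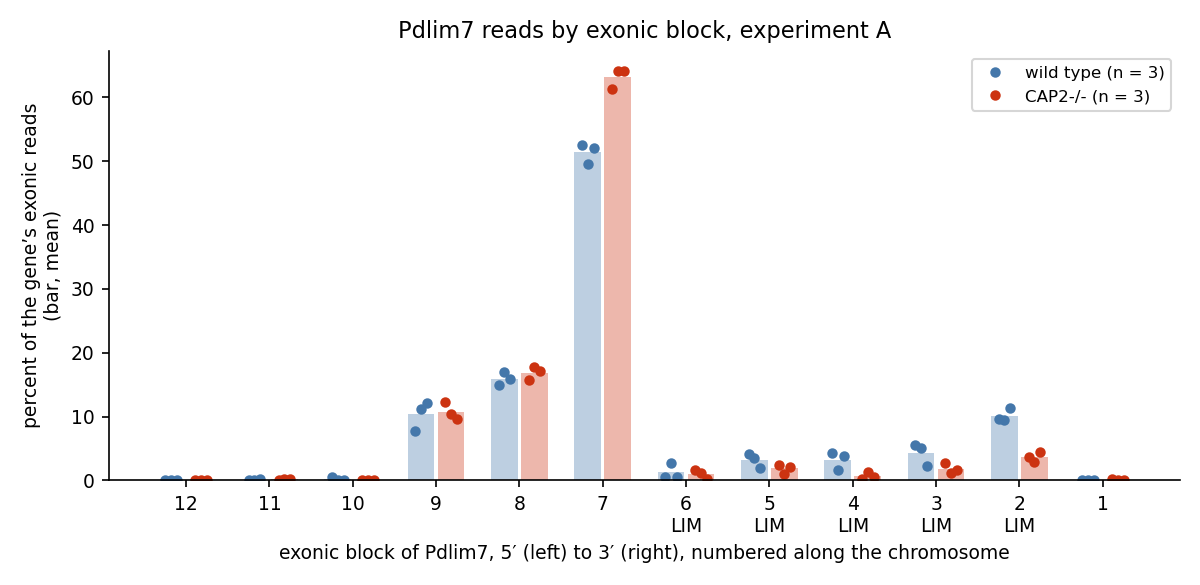
Share of the exonic reads of Pdlim7 in each of its 12 exonic blocks in experiment A, ordered from the start of the transcript at the left to its end at the right; bars are means, points libraries, and LIM marks blocks that encode LIM residues. Block 7 averages 51.4% in wild type and 63.1% in CAP2-/-, and block 2 averages 10.1% and 3.66%.

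Transcript shares are the authors' estimates, from 0 to 1, of each transcript's part of its gene. Of the 20251 shares tested with limma, 0 were called (0.00%) and 1052 (5.19%) were at an unadjusted p under 0.05. The short transcript Pdlim7-206 had a share of 0.436, 0.407 and 0.505 in wild type and 0.670, 0.724 and 0.642 in CAP2-/-, with every CAP2-/- library above every wild-type library, as in either direction for 10.6% of shares tested. The difference was 0.229 (SE 0.039, limma adjusted p = 0.672), and the exact two-sided permutation test gave 0.1, the smallest p that 3 against 3 allows. The long transcript Pdlim7-201 had shares of 0.0651, 0.133 and 0.0434 against 0.0541, 0.0387 and 0.0226, and these overlapped. Of the other Pdlim7 transcripts, Pdlim7-209 had 0.281, 0.116 and 0.164 against 0.0573, 0.0385 and 0.107, and Pdlim7-204 had 0.0582, 0.0948 and 0.102 against 0.0577, 0.0413 and 0.0340. Both were lower without overlap (differences of -0.12 and -0.041, limma adjusted p = 0.960 and 0.970), and no coding sequence was found for either. The Pdlim7 transcripts were singled out after their values were seen.

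Pdlim5 was read mostly as short forms in both groups. Its LIM-encoding blocks held 5.80%, 5.42% and 4.73% of reads in wild type and 3.54%, 5.44% and 4.49% in CAP2-/-, with overlapping groups. Both parts of the gene were higher in every CAP2-/- library, the LIM-encoding blocks by a ratio of 1.504 and the others by 1.77. The long transcript Pdlim5-201 had a share of 0.0722 ± 0.00648 in wild type and 0.0603 ± 0.0126 in CAP2-/- (SD, n = 3 each). The short Pdlim5-205 was the main one, at 0.520, 0.629 and 0.664 against 0.740, 0.725 and 0.655, with overlapping groups (difference 0.10, SE 0.048, limma adjusted p = 0.970). Of the other short forms, Pdlim5-204 had 0.190 ± 0.0403 against 0.142 ± 0.0275, and Pdlim5-202 had 0.123, 0.0776 and 0.0670 against 0.0453, 0.0278 and 0.0659. The groups of Pdlim5-202 did not overlap, and its limma adjusted p was 0.970.

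The transcript shares of Ldb3 overlapped between the groups, as did the share of its reads over LIM-encoding blocks. The LIM-encoding blocks held 35.6%, 31.9% and 31.6% of reads in wild type and 34.4%, 38.3% and 33.2% in CAP2-/-. In CPM these blocks were at 403 to 420 and 431 to 524, without overlap, again with no count over all genes to set beside it. The sums of the other blocks overlapped. The blocks at chr14:34552177-34552322 and chr14:34555343-34555528 had lower mean shares in CAP2-/- and were not called. Their unadjusted p-values (edgeR diffSpliceDGE) were 0.0276 and 0.0426, and 2.59% of all blocks were under 0.05. Their means were 0.716% and 0.394% of reads in wild type and 0.456% and 0.243% in CAP2-/-. The short Ldb3-203 had a share of 0.541 ± 0.0220 in wild type and 0.520 ± 0.0282 in CAP2-/- (SD, n = 3 each), the long Ldb3-205 had 0.301 ± 0.0236 and 0.288 ± 0.0603, and the long Ldb3-202 had 0.0755 ± 0.0126 and 0.104 ± 0.0520. Reads over exons that separate these forms can be set beside the shares. The block at chr14:34576986-34577344, an exon of Ldb3-202 and Ldb3-203 known from cardiac forms and 359 bases long, held 10.2% to 11.6% of the gene's reads over the 6 libraries. The block at chr14:34571718-34571921, an exon of Ldb3-205 known from skeletal muscle forms and 204 bases long, held 0.135% to 0.480%, low beside that transcript's estimated share. This block averaged 0.361% in wild type and 0.213% in CAP2-/-, with overlapping groups. It was not called (log2 -0.75 against the gene, SE 0.36, edgeR diffSpliceDGE unadjusted p = 0.0380). Pdlim3 has 1 transcript in the deposited table, whose value ran from 0.713 to 0.843, so these shares need not sum to 1 within a gene. No exonic block of Pdlim3 was at an unadjusted p under 0.05, and its LIM-encoding blocks and its other blocks were both higher in every CAP2-/- library, by ratios of 3.15 and 4.25.

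In 13-week-old Cre+ hearts 1 of the 7 genes, Pdlim7, rose, against 0.947% of the 12141 genes tested that were called higher. These values were tested with limma after taking log2(value + 1), a scale that understates changes of low genes, and sex was in the model. The groups of Pdlim7 and Pdlim3 did not overlap, both higher in Cre+, as for 3.87% of all genes. Over the members the median log2 fold change was 1.40, and over all genes tested it was -0.12. Scaling changed the mix of calls over all genes, from 115 higher and 113 lower to 151 and 67 with TMM factors, but left Pdlim7 called. Without Cre- replicate 4 there were 178 higher and 225 lower, and Pdlim7 was again the 1 member called.

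Pdlim7 was at 353, 305, 323, 62 and 262 normalized counts in the Cre- libraries, in replicate order, and at 1015, 1625, 1700 and 1170 in the Cre+ libraries. The lowest Cre+ library was above every Cre- library. The difference was log2 2.44 (SE 0.39, limma adjusted p = 0.0157), and 2.12 (SE 0.20, limma adjusted p = 0.000546) without Cre- replicate 4. It missed the threshold without Cre- replicate 2 (limma adjusted p = 0.0501) and without Cre+ replicates 2, 3 or 4 (0.0566, 0.0602 and 0.0893), at log2 values of 2.11 to 2.46. With the mitochondrial share of each library in the fit it was 2.495 (limma adjusted p = 0.0830).

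Pdlim3 stood at 96, 77, 280, 43 and 271 normalized counts in Cre- and 306, 303, 773 and 838 in Cre+, with groups apart by a narrow gap. Its log2 fold change of 2.08 (SE 0.57) was not called (limma adjusted p = 0.0859), nor was it without Cre- replicate 4 (1.68, SE 0.42, limma adjusted p = 0.0551). It was called without Cre- replicate 5 (2.33, limma adjusted p = 0.0364). Pdlim4 had 58, 65, 47, 42 and 68 in Cre- and 64, 132, 317 and 184 in Cre+, where replicate 1 lay within the Cre- range (log2 1.44, SE 0.40, limma adjusted p = 0.0895, and 1.33 with 0.0944 without Cre- replicate 4). Without Cre+ replicate 1 Pdlim4 was called (1.82, limma adjusted p = 0.0186). Pdlim2 ran widely in Cre-, from 22 in replicate 4 to 312 in replicate 3 with a median of 122, and was at 300, 333, 354 and 208 in Cre+ (log2 1.40, SE 0.52, limma adjusted p = 0.160, and 1.05 with 0.148 without Cre- replicate 4). Pdlim1 was at 153, 171, 204, 232 and 328 in Cre- and 205, 220, 309 and 531 in Cre+ (log2 0.61, SE 0.23, limma adjusted p = 0.159, and 0.52 with 0.151 without Cre- replicate 4).

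The abundant pair, Pdlim5 and Ldb3, overlapped between the groups of experiment B. Pdlim5 had 1478, 1006, 1176, 4238 and 1809 normalized counts in Cre- and 1638, 2758, 1843 and 2091 in Cre+ (log2 0.39, SE 0.34, limma adjusted p = 0.506). Cre- replicate 4 held the highest Pdlim5 of all 9 libraries, and without it the log2 fold change was 0.61 (SE 0.23, limma adjusted p = 0.141). Ldb3 had 3476, 2329, 2207, 5438 and 3183 in Cre- and 2622, 3149, 2075 and 3179 in Cre+ (log2 -0.13, SE 0.27, limma adjusted p = 0.795, and -0.016 with 0.975 without Cre- replicate 4). Whether the fold changes of a gene differ between the experiments was not tested, since age, allele and library kit differ with them. Per kilobase of annotated exon, Ldb3 led in Cre- (545 ± 213, n = 5) with Pdlim5 second (219 ± 149) and Pdlim7 after it (53.8 ± 23.9); Ldb3 overlapped with Pdlim5, and each later member from Pdlim7 on with the next. In Cre+ Pdlim7 stood second (284 ± 69.4, n = 4), overlapping with both Ldb3 (451 ± 85.4) and Pdlim5 (235 ± 54.9), and the ALP group followed, each overlapping with the next. Which exons were counted in experiment B is not stated, so this order also depends on the length used.

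Among 22 genes whose proteins bind PDZ-LIM proteins, some were called, in both directions. In experiment A 19 were tested, 2 were called higher and 1 lower (of all genes 0.841% and 0.509%), with a median log2 fold change of 0.086. Tpm1, sarcomeric tropomyosin, rose from 13034 ± 513 to 20818 ± 453 CPM (log2 0.68, edgeR adjusted p = 0.000855), and Actn4, non-muscle alpha-actinin, from 140 ± 4.91 to 211 ± 28.3 (log2 0.59, edgeR adjusted p = 0.0194). The call for Actn4 was lost without any of wild-type replicates 1 and 3 or CAP2-/- replicates 2 and 3 (edgeR adjusted p = 0.0701 to 0.145). Myot, myotilin, a Z-disc protein that binds filamin C and alpha-actinin, fell from 118 ± 22.6 to 44.0 ± 6.83 CPM (log2 -1.42, edgeR adjusted p = 0.000118). Actn2, the alpha-actinin of cardiac Z-discs, stood at 3769 ± 256 and 3999 ± 322 CPM and was not called (log2 0.086, edgeR adjusted p = 0.862).

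Of the same partner genes 18 were tested in experiment B, with 1 called higher, 1 lower (of all genes 0.947% and 0.931%) and a median of 0.29. Myot was at 69 to 245 normalized counts in Cre- and 8 to 38 in Cre+ (log2 -3.12, SE 0.49, limma adjusted p = 0.0137, and 0.0127 without Cre- replicate 4). It missed the threshold without Cre- replicate 1 or Cre+ replicates 3 or 4 (limma adjusted p = 0.0629, 0.0534 and 0.0794), in females alone (0.0501) and with the atrial markers in the fit (0.543). Flnc, filamin C, was at 599 to 1582 in Cre- and 1380 to 4950 in Cre+, with overlapping groups (log2 1.42, SE 0.31, limma adjusted p = 0.0437, and 1.46 with 0.0282 without Cre- replicate 4). That call was lost without any of Cre- replicates 1, 2 and 3 or Cre+ replicates 2, 3 and 4 (limma adjusted p = 0.0680 to 0.228), with TMM factors (0.0552), without the sex term (0.104), in females alone (0.1003), and with the mitochondrial share (0.177) or the atrial markers (0.622) in the fit.

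Other LIM genes of actin structures, 25 in all and all tested, gave 1 call in CAP2-/- hearts, higher (0.841% of all genes), with a median of 0.026. In Cre+ hearts limma gave 0 calls, with 11 at an unadjusted p under 0.05 (22.1% of all genes), and their median was 0.19. Csrp2, a LIM protein of smooth muscle and fibroblasts, rose from 8.53 ± 2.37 to 26.2 ± 5.59 CPM in CAP2-/- hearts (log2 1.65, SE 0.21, edgeR adjusted p = 0.000514). None of the 3 other genes that join a PDZ to a LIM domain, the actin-regulating kinases Limk1 and Limk2 and the ligase-related Lmo7, was called in either experiment, and at an unadjusted p under 0.05 were 0 with edgeR in experiment A (10.4% of all genes) and 1, Lmo7, with limma in experiment B. Lmo7, singled out after its values were seen, stood at 994 to 2509 normalized counts in Cre- and 618 to 996 in Cre+ (log2 -0.98, limma adjusted p = 0.0994). It was called without Cre- replicate 4 (log2 -0.78, limma adjusted p = 0.0435) or Cre- replicate 5 (log2 -1.12, limma adjusted p = 0.0474).

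The lists of atrial, fibroblast and skeletal muscle markers each held at least 1 gene called higher in both experiments (0.841% and 0.947% of all genes). The sums of atrial markers did not overlap in either experiment, nor did those of fibroblast markers in experiment A. The sums of endothelial, macrophage and erythroid markers overlapped between the groups in both experiments. In experiment A the 10 fibroblast markers summed to 1072 to 1134 CPM in wild type and 1475 to 1620 in CAP2-/-, without overlap. Dcn (467 ± 82.7 to 654 ± 108 CPM) and Postn (47.3 ± 7.71 to 201 ± 81.4) held much of that rise, and neither was called. Only Mfap5 was called (edgeR adjusted p = 0.000943). The median log2 fold change of the 10 was 0.23, with 8 positive and Col1a1 and Pdgfra slightly lower. The 11 smooth muscle and pericyte markers overlapped at 1526 to 1590 and 1299 to 1553. The 7 atrial markers, a list that also holds Myl1, better known from fast skeletal muscle, summed to 134 to 175 CPM in wild type and 3889 to 4655 in CAP2-/-. Nppa, the natriuretic peptide gene that failing ventricles also express, made up most of that rise at 95.4 ± 21.3 and 4265 ± 399 CPM. Myl7, the atrial light chain, was at 1.22 ± 0.120 and 1.35 ± 0.321 CPM, and Sln averaged below 1 CPM over the 6 libraries. Bmp10, a growth factor of atrial muscle, was at 0.176 ± 0.255 and 1.81 ± 0.803 CPM, without overlap and not called (edgeR adjusted p = 0.0612). Myl4 was higher without overlap and not called, at 6.28 ± 0.664 and 10.6 ± 0.863 CPM (edgeR adjusted p = 0.0856). Myl1 was called higher (19.6 ± 0.266 to 53.5 ± 14.0 CPM, edgeR adjusted p = 0.000194). Stard10 went the other way, at 32.9 ± 0.337 and 25.3 ± 1.74 CPM, without overlap and not called (edgeR adjusted p = 0.257). Of the 9 skeletal muscle markers, Casq1 was called higher (2.96 ± 1.57 to 24.0 ± 4.82 CPM, edgeR adjusted p = 0.00150), and their sums overlapped at 3107 to 4663 and 4405 to 5936 CPM. Ckm alone held most of those sums, at 3079 to 4646 and 4360 to 5882 CPM, so they say little of the other markers. The part of fibroblasts in the rises of Pdlim3, Pdlim5 and Pdlim7 was not tested.

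In experiment B the atrial markers summed to 231 to 10223 normalized counts in Cre- and 85132 to 178513 in Cre+. With their mean log2 level in the fit Pdlim7 was no longer called (log2 1.57, limma adjusted p = 0.667), and 7 genes in all were; the sums of these markers did not overlap between the groups. Cre+ replicate 1, the lowest Cre+ library in Pdlim7, was above every Cre- library in Nppa (83376, against 0 to 2511) and Myl1 (1265, against 90 to 328). It lay within the Cre- ranges in Myl7, Myl4, Sln, Bmp10 and Stard10. This library was singled out after its values were seen. Fibroblast markers summed to 3996 to 16134 in Cre- and 13512 to 42190 in Cre+ and overlapped. All 10 had a positive log2 fold change, with a median of 1.30. Mfap5 and Postn were called higher (limma adjusted p = 0.0377 and 0.0407). Of the skeletal muscle markers Tnnt3, Tnni2 and Casq1 were called higher, while the fast myosins Myh1, Myh2 and Myh4 were at 0 to 3 in every library. The sums overlapped (7403 to 10722 and 7336 to 13414), and Ckm alone held most of them (7360 to 10667 and 4070 to 11539). The part of atrial, fibroblast and skeletal muscle cells in the Pdlim7 result was not tested.

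The genes whose levels followed each member most closely were taken by the mean of Pearson's r over the 6 libraries of experiment A and the 9 of experiment B, among 11806 genes tested in both. These r values carry the group difference and shared library effects, and are a description. Pdlim7 was closest to Cav3 (0.964 in A and 0.980 in B), the caveolin of muscle membranes, Adamtsl2 (0.961 and 0.969) and Nppa (0.942 and 0.981). For Pdlim3 these were the secreted factors C4b (0.958 and 0.944), Sfrp2 (0.958 and 0.934) and Mgp (0.988 and 0.903). Pdlim5 was closest to Camta1 (0.960 and 0.921), Cfl2, the muscle cofilin (0.911 and 0.961), and Slmap (0.917 and 0.953). Ldb3 was closest to the mitochondrial genes Sdhd (0.912 and 0.880), Mpc1 (0.967 and 0.794) and Etfrf1 (0.867 and 0.851). The nearest genes were Bean1, Mettl27 and Plekha4 for Pdlim2, and Adm, Pon2 and C1qa for Pdlim4, with mean r values of 0.870 to 0.956.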

How the data were processed

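Heart RNA was measured in 6 libraries of experiment A (Ion Total RNA-Seq) and 9 of experiment B (stranded Illumina TruSeq), per the labels' protocols. STAR 2.6.0c, DESeq and the build mm10 stand in the submitters' processing notes without a role; which tool counted the reads, and with which strand setting, is not given in the sources used here. The authors' values for experiment A are estimated counts for genes and exons, and for transcripts a fraction from 0 to 1. The same deposit holds the authors' comparison, with a normalized mean signal, log2 fold changes and p-values per the file headers. Those deposited for experiment B are normalized counts in whole numbers, taken here as a score because their scaling is not stated, so no count test was run.

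Genes were placed with GENCODE M21, which held 36308 of the 38087 gene identifiers in experiment A and 54165 of the 54232 in experiment B. Rounded estimated counts went into edgeR 4.0.16 (R 4.3.3; TMM, filterByExpr, robust quasi-likelihood). For normalized counts, genes averaging at least 10 entered limma 3.58.1 (robust, with trend) as log2(value + 1), with sex as covariate. Shares of 0.05 to 0.95, of genes with a mean count of at least 50, were tested with limma, and exonic blocks with edgeR's diffSpliceDGE. P-values were adjusted by Benjamini-Hochberg over all features tested. The fits were tested on simulated data. DESeq2 1.42.0, other scalings, filters and covariates, and leaving out each library were alternatives. The members and gene lists were chosen with earlier results of these data known; named are all members, list genes that were called (up to 6 a list), and the 3 genes of most similar pattern, which for Pdlim1 are not reported here.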

Additional observations from a re-analysis of the deposited data

Results flagged for a closer look

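Pdlim5 in Cre- replicate 4 of experiment B, at 4238 normalized counts, lay far above the other 4 Cre- libraries, which held 1006 to 1809. It was the 1 library so placed among 14 groups of member values screened (7 genes in each group of experiment B). The threshold of the screen is one that about 1 in 20 independent groups would pass by chance. The 14 groups share their libraries and are not independent, so their number cannot be set against that rate. Cre- replicate 4 also held the highest Ldb3 of all 9 libraries, at 5438, and the lowest Pdlim7, at 62. The cause was not tested.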

How the results depend on the processing

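In experiment A the same 3 members, Pdlim3, Pdlim5 and Pdlim7, were called higher in each of the 13 alternatives, whereas the genes called in all, 220 in the fit reported, came to 402 with DESeq2, 512 without a filter on low counts and 126 to 275 without single libraries. In experiment B the number of members called, 1, was 0 with the mitochondrial share or the atrial markers as a covariate, 2 with the replicate block, a fit that also leaves out Cre- replicate 5, and 0 to 2 without single libraries. All genes called there, 228, came to 346 without a filter, 36 and 7 with those covariates, 394 with the replicate block, against 525 without Cre- replicate 5 and with no block, and 39 to 695 without single libraries. Ldb3 turned to log2 0.31 with the atrial markers as a covariate (limma adjusted p = 0.997). No member transcript or exonic block was called in any alternative; in all, 4 shares were called without a minimum gene count, and the 2 exonic blocks became 0 with at least 10 counts in every library, 0 with limma's diffSplice, 1 with the replicate block and 0 to 11 without single libraries. Among uncalled values, the share difference of Ldb3-205 ran from -0.047 to 0.0068 without single libraries, turning to 0.0068 and 0.0032 without CAP2-/- replicates 2 and 3. That of Pdlim7-207 ran from -0.0015, without wild-type replicate 1, to 0.033. Block 6 of Pdlim7 ran from log2 -0.84 to 0.63, turning to 0.63 without wild-type replicate 2 and 0.27 without CAP2-/- replicate 3, and to 0.072 with limma. The cause was not tested. Replicate numbers did not pair the samples: deviations from the group means correlated at -0.17, -0.12 and -0.02 between same-numbered libraries in experiment A and at 0.24, -0.11, 0.18 and 0.03 in experiment B, and 0 of 3 and 0 of 4 libraries were closest to their own number. With the replicate block, 115 genes were called higher and 51 lower in experiment A, where Actn4 was not called (edgeR adjusted p = 0.0555). In experiment B Pdlim3 joined Pdlim7 with the block (log2 2.33, limma adjusted p = 0.0310), as it did without Cre- replicate 5 alone (0.0364). The depth of experiment A limits the exon results, since LIM-encoding blocks of Pdlim7 held few reads; that of experiment B is unknown.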
